A study of Rattus norvegicus and Mus musculus with 3 samples.

Results

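A set of 8 genes of acetylcholine signalling was followed through the hippocampal libraries. They comprised 4 muscarinic receptor genes (Chrm1, Chrm2, Chrm3 and Chrm4), 3 nicotinic receptor subunit genes (Chrna4, Chrna7 and Chrnb2) and Ache, which encodes acetylcholinesterase. The genes were taken by symbol, ignoring case, and all 8 were found in every table, among 30438 genes listed for the rats and 34714 for the mouse. Hippocampal RNA had been sequenced as 3 libraries, 1 per group. The first came from a mouse 6 months old, labelled as the wild type belonging to the 3xTg-AD model and with genotype WT. The other two were rats of 3 to 4 months, genotype WT in the labels, 1 called Sham and 1 called 2VO. In this field 2VO usually means that both common carotid arteries are closed to lower blood flow to the brain, and Sham that the surgery is done without closing them. The sources used here do not give rat strain, sex, time after surgery or any pooling of animals. No transgenic animal was analysed here.

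Acetylcholine reaches the hippocampus mainly along axons of neurons whose cell bodies lie in the medial septum and diagonal band. Muscarinic receptors are G protein-coupled: Chrm1 and Chrm3 encode receptors that act through Gq and phospholipase C, and Chrm2 and Chrm4 receptors that act through Gi/o and lower cyclic AMP. Nicotinic receptors are ion channels of 5 subunits; alpha7, from Chrna7, forms channels from 1 kind of subunit, whereas alpha4 and beta2, from Chrna4 and Chrnb2, assemble together. Acetylcholinesterase ends the signal by splitting acetylcholine, and inhibitors of this enzyme are used as drugs in dementia.

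The deposited values are a normalized expression signal whose unit is not stated, and the depth of the libraries is unknown. Because each group holds 1 library, no test was run, no value has a replicate error, and every difference describes these libraries, not the conditions. The tables summed to 325636 units in Sham, 333941 in 2VO and 268889 in the mouse. In bulk tissue, fewer cells of a type and less RNA per cell cannot be told apart.

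All 8 genes were above 0 in all 3 libraries, and Chrm1 had the highest value of the 8 in each. In Sham the values ran, from the top, Chrm1, Ache, Chrm3, Chrnb2, Chrna7, Chrm4, Chrna4 and Chrm2. The 2VO order differed from it only in Chrnb2 standing above Chrm3, and the mouse order only in Chrna7 standing above Chrnb2. Both exchanges concerned genes with close values: Chrm3 was 1.18 times Chrnb2 in Sham, Chrnb2 was 1.18 times Chrm3 in 2VO, and Chrna7 was 1.02 times Chrnb2 in the mouse. With 1 library per group it cannot be said which neighbours in these orders differ beyond their spread. Whether the authors divided by transcript length is not given either, so the orders are of deposited values and not of transcript numbers. Among genes above 0, Chrm1 ranked at percentile 94.4 in Sham, 94.9 in 2VO and 93.3 in the mouse. Chrm2 ranked at 43.99, 43.05 and 51.8 in the same order.

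**Figure D1:**
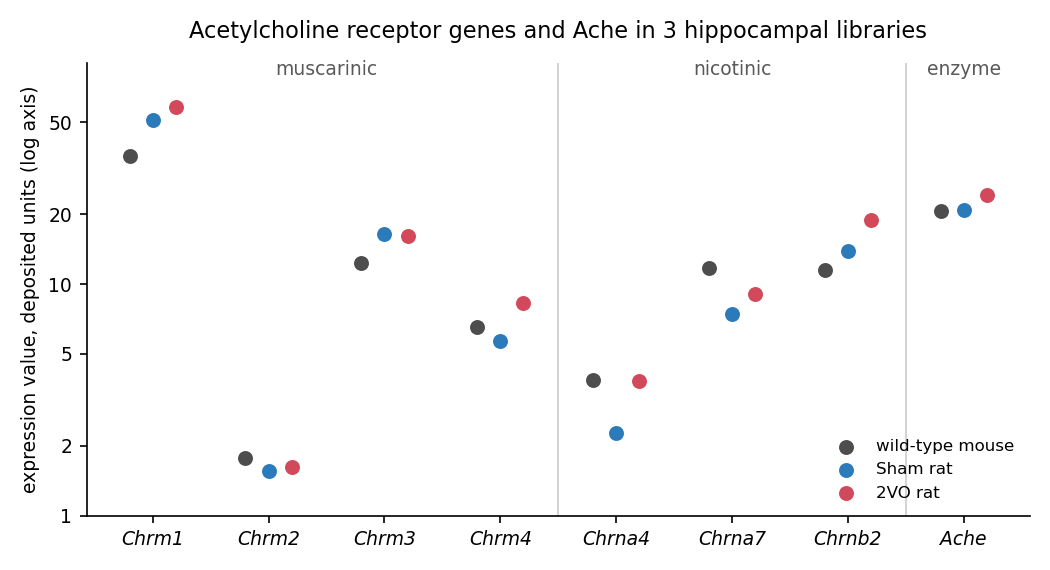
Deposited expression value (log axis, units not stated) of each gene in the wild-type mouse, Sham rat and 2VO rat libraries, 1 point per library. Chrm1 is highest and Chrm2 lowest in each library, and the 2VO point lies above the Sham point for every gene except Chrm3.

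In the comparison of 2VO with Sham, which asks how the hippocampus of the vascular model differs from its surgical control, the nicotinic subunit genes and Chrm4 stood higher in the 2VO rat, while Chrm2 and Chrm3 had nearly equal values in both rats. On the log2 scale with 1 unit added, 7 of the 8 genes were higher in 2VO, where 58.7% of the 13550 measured genes (those whose mean over the rats reached 1 unit) were higher; Chrm2 was one of the 7 and turned lower under 3 of the other scalings (-0.0056 with equal upper quartiles, -0.0049 with median of ratios and -0.0063 with a lowess trend removed). The median over the 8 was 0.23, beside 0.039 over all measured genes. None of the 8 reached 1.5-fold on this scale in either direction, where 1.51% of measured genes were at least 1.5-fold higher and 0.967% at least 1.5-fold lower. Those shares stood for 205 and 131 genes, and became 156 and 165 when the rats were scaled to equal upper quartiles. Under that scaling 47.8% of measured genes were higher in 2VO by any amount. Adding 1 unit understates the ratio of low genes. With no unit added Chrna4 alone passed 1.5-fold, beside 3.08% of measured genes, and beside 6.67% of the genes that, like Chrna4, had a mean of 1 to 5 units.

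**Figure D2:**
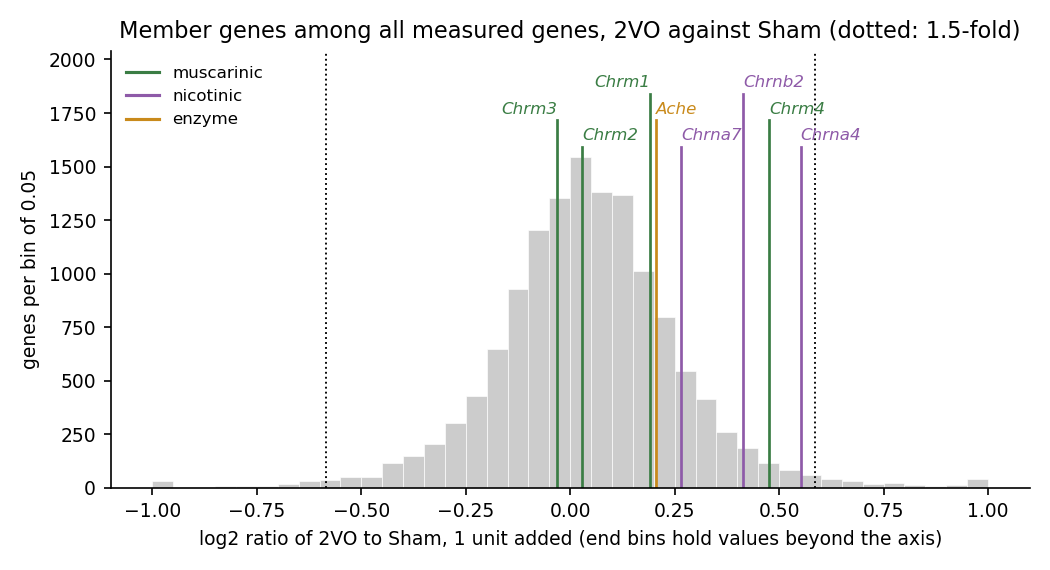
Number of measured genes per bin of the log2 ratio of 2VO to Sham (1 unit added), with a line for each of the 8 genes coloured by class and dotted lines at 1.5-fold. The 3 nicotinic genes and Chrm4 stand on the higher side of the distribution, between 0.26 and 0.55, and Chrm2 and Chrm3 stand near 0.

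The proximal promoters of 4 of these genes are shown, chosen by their ratio between the rats. Chrna4, Chrm4 and Chrnb2 had the 3 highest ratios. Chrm3 was the 1 gene with a lower value in 2VO, though nearly equal in both rats (log2 ratio of -0.032). Each is the stretch of 250 bases before the start of the gene in the rat, 5′ to 3′ on the strand of the gene, from RefSeq on the build GRCr8; the submitters' notes name mRatBN7.2, so these coordinates belong to GRCr8 only. Capitals mark GC boxes, the letters GGGCGG on either strand, which the transcription factor Sp1 is known to bind.
Chrna4 promoter, chr3:188534527-188534776, minus strand: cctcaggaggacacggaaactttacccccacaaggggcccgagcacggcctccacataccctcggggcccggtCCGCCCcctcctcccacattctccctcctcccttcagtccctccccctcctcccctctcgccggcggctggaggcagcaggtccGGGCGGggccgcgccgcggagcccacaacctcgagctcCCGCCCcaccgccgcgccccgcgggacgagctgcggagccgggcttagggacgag
Chrm4 promoter, chr3:98348830-98349079, plus strand: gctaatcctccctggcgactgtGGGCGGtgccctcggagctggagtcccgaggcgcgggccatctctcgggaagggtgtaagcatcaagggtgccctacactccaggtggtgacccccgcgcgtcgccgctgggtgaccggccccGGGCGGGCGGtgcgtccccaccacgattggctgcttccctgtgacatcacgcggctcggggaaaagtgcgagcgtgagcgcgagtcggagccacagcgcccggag
Chrnb2 promoter, chr2:177487307-177487556, minus strand: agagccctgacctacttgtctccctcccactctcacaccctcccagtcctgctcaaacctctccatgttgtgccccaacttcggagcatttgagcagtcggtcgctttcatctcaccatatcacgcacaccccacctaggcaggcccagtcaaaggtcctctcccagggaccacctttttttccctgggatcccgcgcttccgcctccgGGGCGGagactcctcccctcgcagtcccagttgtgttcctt
Chrm3 promoter, chr17:64696677-64696926, plus strand: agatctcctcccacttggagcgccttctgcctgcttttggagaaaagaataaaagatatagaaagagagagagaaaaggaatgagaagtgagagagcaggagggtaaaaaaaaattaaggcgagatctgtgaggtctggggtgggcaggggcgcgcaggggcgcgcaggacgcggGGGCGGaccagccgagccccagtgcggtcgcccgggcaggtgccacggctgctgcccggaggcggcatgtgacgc
A GC box was present in 7 of the 8 promoters, all but that of Chrm1, and in 30.5% of 33469 rat promoter windows of the same length, which include those of non-coding genes. Overlapping matches were counted singly, and gave 3 for Chrna4, 3 for Chrm4, 1 for Chrnb2, 1 for Chrm3 and 4 for Ache. Chrnb2 and Chrm3 had the same number of matches and Ache the highest. Whether the number of matches goes with the ratio between the rats was not tested. The share of G and C was 74.4% for Chrna4, 70.4% for Chrm4, 59.6% for Chrnb2 and 60% for Chrm3, and over the 8 it ran from 58.8% (Chrm1) to 75.6% (Ache), beside a median of 51.2% and an upper quartile of 60% over all windows. The letters TATAAA were in 0 of the 8 (12.9% of all windows) and the cyclic AMP element TGACGTCA in 0 of the 8 (1.59%). CCAAT was in that of Chrm4 alone (34.0%), and CACGTG in those of Chrna7 and Ache (5.59%), all searched on both strands.

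Among the Gq-coupled muscarinic receptors, Chrm1, which encodes the M1 receptor of pyramidal neurons, was 51.1 units in Sham, 58.5 in 2VO and 35.8 in the mouse. The mouse was the lowest of the 3 libraries, and the rats differed by a log2 ratio of 0.19, higher than that of 79.4% of measured genes. Chrm3, which encodes the M3 receptor, was 16.5 in Sham, 16.1 in 2VO and 12.3 in the mouse. The rats were close together, with a log2 ratio of -0.032.

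Of the Gi/o-coupled receptors, Chrm4, which encodes the M4 receptor, was 5.69 in Sham, 8.30 in 2VO and 6.53 in the mouse. The Sham value was the lowest of the 3 and the 2VO value the highest, a ratio of 1.46 as deposited and a log2 ratio of 0.48 with 1 unit added, above 97.2% of measured genes. Chrm2, which encodes the M2 receptor, known as an autoreceptor on cholinergic endings and also present on interneurons, was 1.56 in Sham, 1.62 in 2VO and 1.77 in the mouse. It was the lowest gene of the 8 in every library, with a log2 ratio of 0.029 between the rats.

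The receptors of the Gi/o pair therefore differed from each other in their ratio between the rats, and so did those of the Gq pair by less. Ratios of 2 genes within 1 library do not move with the scaling of that library. Chrm4 over Chrm3 was 0.346 in Sham, 0.517 in 2VO and 0.530 in the mouse. Chrm4 over Chrm1 was 0.111 in Sham, 0.142 in 2VO and 0.182 in the mouse. For both ratios Sham was the lowest library, and for Chrm4 over Chrm3 the 2VO rat lay close to the mouse. Chrm3 over Chrm1 was 0.322 in Sham, 0.275 in 2VO and 0.344 in the mouse, with 2VO the lowest. The summed values of the Gq-coupled Chrm1 and Chrm3 were 9.32 times those of the Gi/o-coupled Chrm2 and Chrm4 in Sham, 7.52 times in 2VO and 5.80 times in the mouse.

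Within the muscarinic sum, Chrm1 made up 68.3% in Sham, 69.3% in 2VO and 63.4% in the mouse. Chrm3 made up 21.98%, 19.0% and 21.8% in the same order, so its share was lowest in 2VO. Chrm4 made up 7.60%, 9.82% and 11.6%, and Chrm2 2.09%, 1.91% and 3.13%. The fifth muscarinic gene, Chrm5, was 1.03 in Sham, 1.14 in 2VO and 0.926 in the mouse, and including it changed none of these shares by as much as 5 percentage points.

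**Figure D3:**
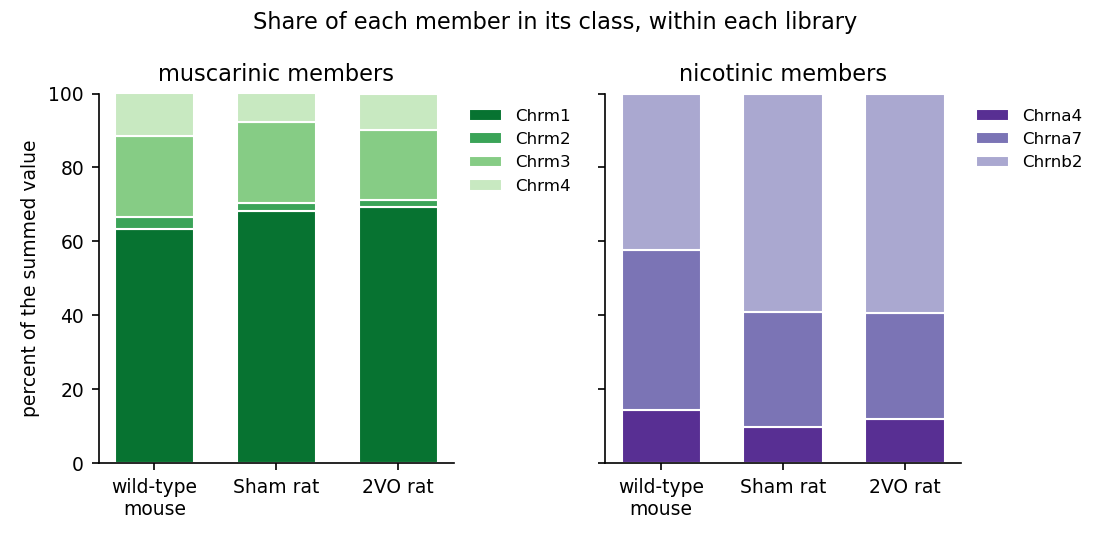
Share of each gene, in percent of the summed deposited value of its class, within the wild-type mouse, Sham and 2VO libraries, for the 4 muscarinic genes (left) and the 3 nicotinic genes (right). Chrm1 holds 63.4% to 69.3% of the muscarinic sum, and Chrnb2 holds 59.0% and 59.4% of the nicotinic sum in the rats against 42.4% in the mouse.

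All 3 nicotinic subunit genes were higher in 2VO than in Sham under each scaling, filter and added unit tried in which they were measured, while centring on neuron markers turned Chrna7 (-0.17) and Chrnb2 (-0.021) lower. Chrna4, the alpha4 subunit of the high-affinity nicotinic receptor, was 2.28 in Sham, 3.81 in 2VO and 3.86 in the mouse. Sham stood apart as the low library, with 2VO and mouse at nearly the same value. The ratio of 2VO to Sham was 1.67 as deposited and the log2 ratio 0.55 with 1 unit added, above 98.2% of measured genes. Chrnb2, the beta2 partner of alpha4, was 14.0 in Sham, 18.9 in 2VO and 11.5 in the mouse. The 2VO rat was the highest and the mouse the lowest, and the log2 ratio between the rats was 0.41, above 95.7% of measured genes.

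Chrna7, which encodes the alpha7 subunit, abundant in the hippocampus, was 7.41 in Sham, 9.11 in 2VO and 11.7 in the mouse. Here the mouse was the highest library and Sham the lowest, with a log2 ratio of 0.26 between the rats. Chrna4 over Chrnb2 was 0.164 in Sham, 0.202 in 2VO and 0.336 in the mouse. Chrna7 over Chrnb2 was 0.531 in Sham, 0.481 in 2VO and 1.02 in the mouse. Both subunit ratios were higher in the mouse than in either rat. Chrna4 over Chrnb2 in 2VO was 1.23 times that in Sham, and Chrna7 over Chrnb2 was 0.907 times. In shares of the 3 nicotinic genes, Chrna7 made up 31.3% in Sham, 28.6% in 2VO and 43.3% in the mouse, and Chrna4 made up 9.66%, 11.98% and 14.3%. Over all 16 nicotinic subunit genes listed, Chrnb2 made up 46.9% in Sham, 48.7% in 2VO and 38.7% in the mouse, and Chrna7 24.9%, 23.4% and 39.5%.

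Ache was 20.9 in Sham, 24.2 in 2VO and 20.7 in the mouse. Sham and the mouse were nearly equal and 2VO was higher, with a log2 ratio of 0.20, above 81.2% of measured genes. The related enzyme butyrylcholinesterase, from Bche, was below 1 unit in every library, at 0.496 in Sham, 0.781 in 2VO and 0.713 in the mouse. The summed muscarinic genes were 3.16 times the summed nicotinic genes in Sham, 2.65 times in 2VO and 2.08 times in the mouse.

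Some of the 8 genes overlap others in the rat annotation of GRCr8, and the library kit is one that does not mark strand, so reads from overlapping parts cannot be told apart by strand. Chrm4 overlaps Mdk, the growth factor midkine, which was 13.1 in Sham, 12.1 in 2VO and 6.92 in the mouse. Chrna4 overlaps Col20a1, a collagen gene, which was 2.003 in Sham, 2.38 in 2VO and 3.40 in the mouse. Ache overlaps Ufsp1, a protease gene, which was 8.92 in Sham, 9.47 in 2VO and 4.16 in the mouse. Between the rats the log2 ratios were -0.10 for Mdk, 0.17 for Col20a1 and 0.08 for Ufsp1, beside 0.48 for Chrm4, 0.55 for Chrna4 and 0.20 for Ache. The part of shared reads in these ratios was not tested. Ache also overlaps a non-coding gene. No gene overlapped Chrm1, Chrna7 or Chrnb2, and those overlapping Chrm2 and Chrm3 were non-coding.

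Defining genes of cholinergic neurons were low or at 0. Chat, which makes acetylcholine, was 0.0265 in Sham, 0.0977 in 2VO and 0.0134 in the mouse, and Slc18a3, its vesicular transporter, was 0.150, 0.222 and 0.0180. The choline transporter gene Slc5a7 was 0.894 in Sham, 0.666 in 2VO and 0.128 in the mouse, and Isl1 and Lhx8, transcription factors of forebrain cholinergic neurons, were listed at 0 in all 3 libraries.

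Of the other 14 acetylcholine receptor genes, 3 reached a mean of 1 unit in the rats. All 3 were higher in 2VO, where 58.7% of all measured genes were. None was higher by 1.5-fold, where 1.51% were. Chrna5, an accessory subunit, was 1.38 in Sham and 1.93 in 2VO. Chrna2 was 3.56 and 3.76, and Chrm5 is given above. The other 11, which include the muscle-type subunit gene Chrna1 and the ganglionic Chrna3 and Chrnb4, were below 0.4 units in both rats, and Chrna6, Chrna9 and Chrnb3 were listed at 0 in both.

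Of 8 measured genes that assemble or modulate these receptors or anchor the esterase, 7 had the higher value in 2VO, and their median was 0.29. Beside this, 58.7% of all measured genes were higher, with a median of 0.039. Lypd6, a membrane-anchored modulator of nicotinic receptors, was 3.00 in Sham, 5.39 in 2VO and 5.66 in the mouse. With a log2 ratio of 0.68 it was the 1 gene of these 8 past 1.5-fold, where 1.51% of all measured genes were at least 1.5-fold higher. Its mean over the rats was 4.19 units, within the range of 1 to 5 units in which ratios spread more widely than above it. Lynx1, a toxin-like protein that dampens nicotinic receptors, was 53.7 in Sham and 72.2 in 2VO. Tmem35a, a chaperone needed for alpha7 assembly, was 27.7 and 35.6 (listed in the rat tables as Tmem35, matched through the RefSeq synonym). Ric3, another nicotinic chaperone, was 9.48 and 10.3, and Prima1, which anchors acetylcholinesterase in the membrane, was 6.37 and 7.61. Ly6h, a neuronal relative of Lynx1, was the 1 member lower in 2VO, at 160.5 and 148.

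Downstream of the muscarinic receptors the genes were divided. The counts in this paragraph stand beside 58.7% of all measured genes higher in 2VO, and the medians beside 0.039. Of all measured genes 1.51% were at least 1.5-fold higher and 0.967% at least 1.5-fold lower. Of 11 Gq pathway and M-current genes 8 had the higher value in 2VO and 3 the lower, none of them past 1.5-fold, and the median was 0.08. Prkcb, a protein kinase C, was 88.8 in Sham and 74.8 in 2VO. Kcnq5, a subunit of the potassium channels that M1 closes, was the furthest from 0, at 16.0 and 24.0. The 9 Gi/o pathway genes split into 4 higher and 5 lower, and their median was -0.05. Adcy1, a calmodulin-stimulated adenylyl cyclase, was 189.6 in Sham and 129 in 2VO, Gnao1, the Go alpha subunit, was 109.7 and 137, and Gnai2 was 97.7 and 94.0. Choline supply genes were higher in 5 of 7, with a median of 0.15; the choline transporter gene Slc44a1 was 27.7 and 36.3, Acly, which makes acetyl-CoA, was 38.1 and 44.9, and Gpcpd1 was 20.3 and 21.3.

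**Figure D4:**
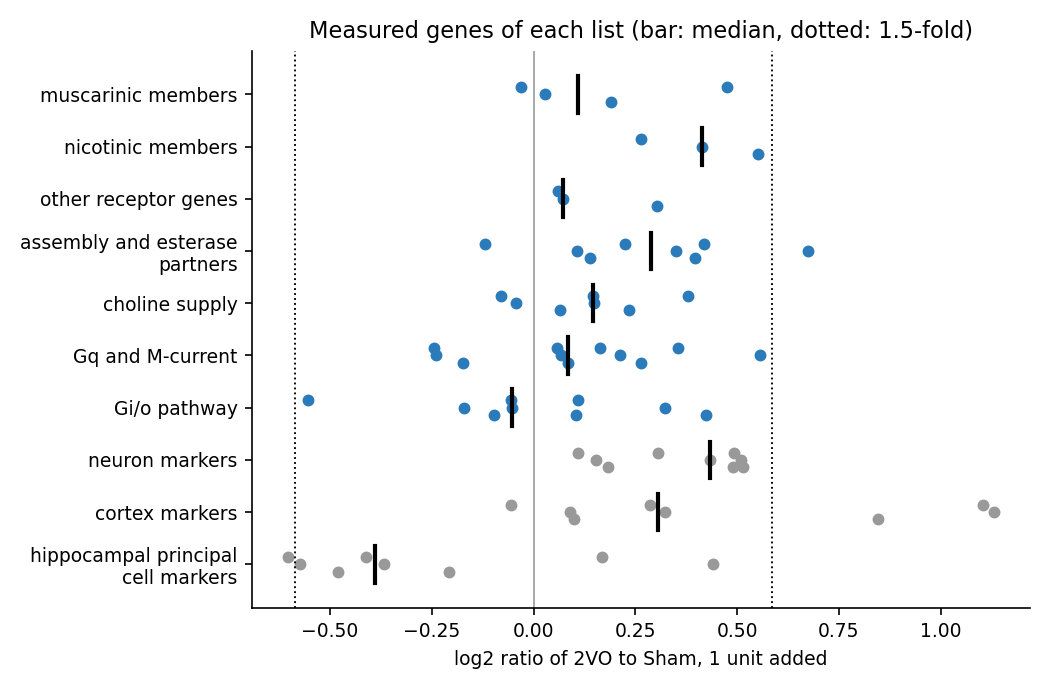
Log2 ratio of 2VO to Sham (1 unit added) of each measured gene of the muscarinic, nicotinic and pathway lists (blue) and of neuron, cortex and hippocampal principal cell markers (grey), with the median of each list as a bar and dotted lines at 1.5-fold. The nicotinic genes (median 0.41) run from 0.26 to 0.55. The neuron markers (median 0.43) run from 0.11 to 0.51, a range that also holds Chrm1 (0.19) and Chrm4 (0.48). Of the principal cell markers 6 of 8 are lower in 2VO.

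Markers of cell types and regions also differed between the rats. Their counts stand beside 58.7% of all measured genes higher in 2VO. All 9 neuron markers were higher in 2VO, with a median of 0.43 and a summed value of 1510 in Sham and 1954 in 2VO. Syt1, the calcium sensor of vesicle release, was 198 and 282. The log2 ratios of these markers ran from 0.11 (Rbfox3) to 0.51 (Tubb3). Set against their median, the 8 receptor and enzyme genes had a median of -0.20, and only Chrm4 (0.04) and Chrna4 (0.12) were above 0. The nicotinic gene Chrnb2 was then at -0.021, Chrna7 at -0.17, Ache at -0.23 and Chrm1 at -0.24, with Chrm2 at -0.40 and Chrm3 at -0.47. These signs depend on the markers taken. Before centring, Chrm1 (0.19), Ache (0.20), Chrna7 (0.26) and Chrnb2 (0.41) had higher ratios than Rbfox3, Nefl (0.15) and Eno2 (0.18). Cortex markers were higher in 7 of 8, summing to 63.3 in Sham and 89.3 in 2VO, with Lamp5 at 12.2 and 27.3, Fezf2 at 6.62 and 12.7 and Rspo1 at 0.373 and 2.01. Markers of hippocampal pyramidal and granule cells were lower in 6 of 8, summing to 403 and 305. Interneuron markers were higher in 5 of 8, at sums of 231 and 235, and thalamic markers in 5 of 8, at 25.2 and 27.2, with Pou4f1 of the habenula listed at 0 in both rats. Striatal markers summed to 57.6 and 54.5. Of the glial lists, oligodendrocyte markers were higher in 8 of 8 (sums of 3750.4 and 4700), astrocyte markers in 4 of 8 (2082 and 1806, or 1304 and 1446 without Gfap, which was 778 and 360) and microglial markers in 1 of 8 (166 and 120.0). The 6 choroid plexus markers summed to 1.49 and 6.87, mostly through Ttr at 0.434 and 4.75. The part of neuronal content and of cortical tissue in the receptor differences was not tested.

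The wild-type mouse was set beside each rat as levels, since species, age and annotation differ together and cannot be told apart. The rat comparisons share the mouse library. Against Sham, 1 of the 8 genes was at least 1.5-fold higher in the mouse, Chrna7 at 1.51-fold with 1 unit added, where 15% of 11437 shared symbols were. With no unit added 2 of 8 were, Chrna4 at 1.69-fold and Chrna7 at 1.58-fold, beside 17.9% of those symbols. On the scale with 1 unit added 0 of 8 were at least 1.5-fold lower, where 24.5% were. Against 2VO, 0 of 8 were higher by that margin (12.7% of 11461 symbols) and 2 of 8 lower (25.1%), namely Chrm1 and Chrnb2, which were 1.62-fold and 1.60-fold higher in 2VO. Chrm4 lay above Sham in the mouse, with a log2 ratio of 0.17, and below 2VO, at -0.31. The median log2 ratio over all shared symbols was -0.12 for mouse to Sham and -0.16 for mouse to 2VO.

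Likeness to other genes was measured over the 3 libraries as the largest absolute difference in log2 value (1 unit added), among 16250 shared symbols. With 3 libraries it mainly finds genes of like level. Nearest to Chrm1 were Tomm34 (0.06), Usp14 (0.07) and Aars (0.08). Nearest to Ache were G6pc3 (0.05), Phlpp1 (0.05) and Sdr39u1 (0.06). Chrna4, with its low Sham value, had Dnajc28 (0.09), Gucd1 (0.11) and Magohb (0.16) nearest; Dnajc28 was 2.22 in Sham, 3.56 in 2VO and 3.57 in the mouse.

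**Figure D5:**
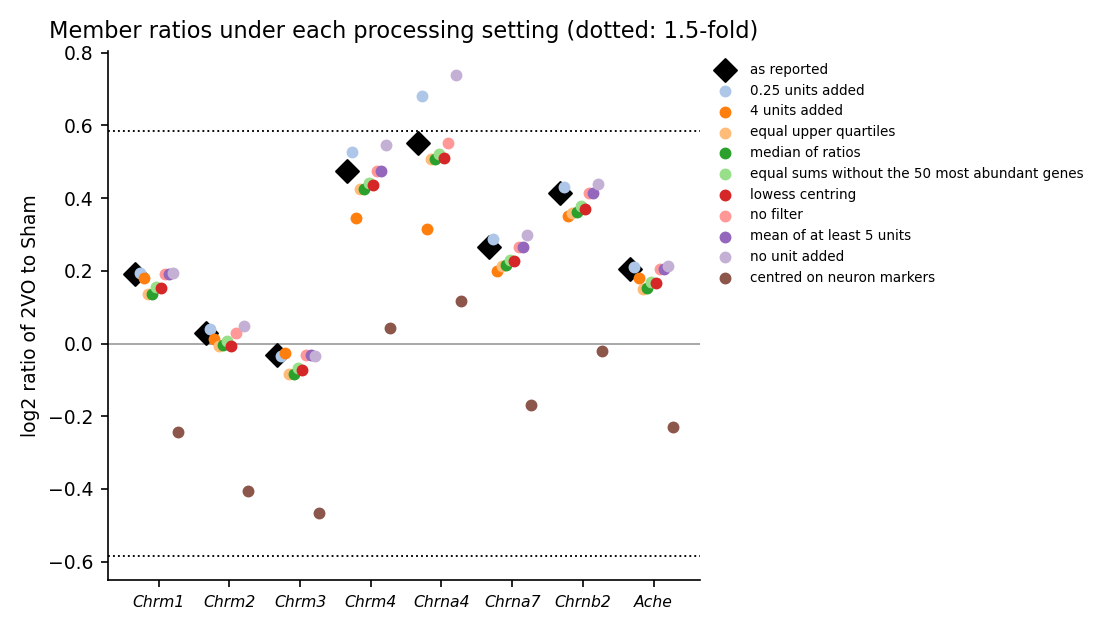
Log2 ratio of 2VO to Sham of each gene as reported (black diamonds) and under each other processing setting (coloured points), with dotted lines at 1.5-fold. Chrna4 passes 1.5-fold when 0.25 or no units are added, and centring on the neuron markers places every gene except Chrm4 and Chrna4 below 0.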

How the data were processed

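Total RNA from hippocampus, 1 µg per library, was made into libraries by the TruSeq RNA Library Prep Kit v2, as stated per the labels' protocols. The authors deposited 1 table per library holding a normalized expression signal per gene, and the column is the group's name, per the file headers. The sources used here do not give its unit, quantifier or annotation. Per the submitters' processing notes, which state no roles, fastp 0.21.0, HISAT2 2.1.0 and DESeq2 were used, with the builds mRatBN7.2 and GRCm39. The low values gave no whole reads, so no counting interval or floor is given.

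Libraries were grouped by title and compared as deposited, without rescaling. For 2VO against Sham the log2 ratio had 1 unit added to each value, over the 13550 genes whose mean over the rats reached 1 unit, and a call was a ratio of at least 1.5-fold. With 1 library per group no test was possible. The design had foreseen counts as a possible unit, and its steps for counts were not used. The member genes and lists were chosen with earlier results of these data known. All 8 members were named. Of the pathway lists, genes at least 1.5-fold apart, up to 3 with the highest mean, and Chat, Slc18a3, Slc5a7 and Bche were to be named; further list members, and marker genes, were named after their values were seen. Some genes that this rule takes are left out of the text. Promoter sequences were matched by symbol, for 8 of 8 members, to RefSeq on GRCr8. The calculation was tested on simulated data. Alternatives were 0.25 or 4 units added, upper-quartile, median-of-ratios and sum scaling without the 50 most abundant genes, a lowess trend (span 0.3), and, for the filter, none or a mean from 5 units up. Python 3.11.15, pandas 2.3.3, numpy 2.4.6, statsmodels 0.14.6 and matplotlib 3.10.9 were used.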

Additional observations from a re-analysis of the deposited data

How the results depend on the processing

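No paired analysis was possible because each group holds 1 library. The median log2 ratio over the 8 genes, 0.23, ran from 0.18 to 0.25 over the planned settings and from 0.20 to 0.26 with each gene left out in turn. Settings without an added unit (for the rats and for mouse against Sham) and centred on neuron markers were added after seeing the data. With no unit added the median was 0.26 and Chrna4 was 0.74, past 1.5-fold; it was also past it, at 0.68, with 0.25 units. Centred on the neuron markers the median was -0.20 and 2 of 8 genes were higher. Chrm1 was at -0.24, Chrm2 at -0.40, Chrna7 at -0.17, Chrnb2 at -0.021 and Ache at -0.23. The neuron markers themselves ran from 0.11 to 0.51, so these signs depend on the markers taken. Chrm2 was -0.0056 with equal upper quartiles, -0.0049 with median of ratios and -0.0063 with the lowess trend removed. Genes at least 1.5-fold higher and lower in 2VO, 205 and 131, became 342 and 215 with 0.25 units, 70 and 50 with 4 units, and 97 and 59 at a mean of at least 5 units, where fewer genes were tested. The share of higher genes among these calls was 61.0%, and 48.6% with equal upper quartiles (156 and 165), 48.8% with median of ratios (157 and 165), 50.6% with the lowess trend removed (164 and 160) and 52.6% with sum scaling (170 and 153). Chrm4, with a log2 ratio of 0.17 for mouse to Sham, was -0.31 for mouse to 2VO. The cause of these moves was not tested. Unknown depth and single libraries limit every value.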

Other observations

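Some genes near the receptors differed more between the species than between the rats, and are given as values. Such differences were common among all genes. Against Sham, 15% of 11437 shared symbols were at least 1.5-fold higher in the mouse and 24.5% lower. Between the rats 1.51% of 13550 measured genes were at least 1.5-fold higher in 2VO and 0.967% lower. Chrna2, a nicotinic subunit gene of a class of hippocampal interneurons, was 3.56 units in Sham and 3.76 in 2VO but 0.433 in the mouse. Prima1, the membrane anchor of acetylcholinesterase, was 6.37 in Sham and 7.61 in 2VO but 0.993 in the mouse, while Ache itself was 20.9, 24.2 and 20.7. Ric3 was highest in the mouse, at 18.7, beside 9.48 in Sham and 10.3 in 2VO. How the annotations of the species differ for these genes was not tested.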
